A study of Mus musculus with 27 samples.

Results

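The genes described here are 9 ligands, receptors and regulators of signalling by transforming growth factor beta (TGF-beta) and bone morphogenetic proteins (BMPs). They are the ligand genes Tgfb1, Tgfb2, Tgfb3, Inhba and Bmp4, the receptor genes Tgfbr1 and Tgfbr2, the latency gene Ltbp1 and the antagonist gene Grem1. They were chosen by gene name, and each matched 1 of the 54532 genes in the deposited table.

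Bulk RNA-seq followed mouse embryonic fibroblasts (MEFs) on their way to induced neurons (iNs) in 27 libraries. Cells that were WT, Per1-/- or Per2-/- by their labels were taken on days 0, 2 and 4, with 3 biological replicates in each of the 9 groups. Per1 and Per2 are genes of the circadian clock, and the study asked what their loss does to this reprogramming. The mutant cells came from mice with the Per1tm1Drw or Per2tm1Drw allele, crossed to homozygosity. All cultures, WT included, had been transduced with lentiviruses for neuronal transcription factors that doxycycline switches on. On day 0 the transduced cells were still in medium with serum and had not been given doxycycline, and they were then moved to serum-free N3 medium with doxycycline. Induction of these factors and the change of medium therefore cannot be told apart in any comparison with day 0. The MEFs were early-passage cultures pooled from several embryos whose sex was not determined, and such cultures hold macrophages.

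TGF-beta ligands are secreted in a latent form bound to proteins such as LTBP1, and once released they bring together the receptors TGFBR2 and TGFBR1, which phosphorylate SMAD2 and SMAD3. Activins, which are dimers of inhibin beta chains such as INHBA, signal through related receptors to the same SMADs, while BMPs signal to SMAD1, SMAD5 and SMAD9 and are held back by secreted antagonists such as gremlin 1. In fibroblasts the TGF-beta branch is known for driving matrix, contractile and wound-response genes, and blocking it is a common aid in converting fibroblasts to neurons.

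Depth was 15815013 to 24264097 fragments per library, and the members were covered by 234 (Bmp4) to 18727 (Grem1) fragments in a library. Levels are given in FPKM, the fragment number of a gene scaled by its exonic length and by sequencing depth, so that levels of different genes are compared per length. Differences are log2 fold changes of FPKM + 0.1 with their SE, tested with limma over 14932 genes, and a gene was called where the Benjamini-Hochberg adjusted p did not exceed 0.05 and the size of the log2 fold change reached 0.58. Of the targeted genes, Per1 was at 4.11 ± 0.87 FPKM in Per1-/- and 5.78 ± 0.48 in WT on day 0 (SD, n = 3). The Per2 transcript went against its label, at 1.93 ± 0.068 FPKM where the label reads Per2-/- and 0.894 ± 0.071 in WT, and the ranges did not overlap on any day. At the protein level, the paper found PER1 lost in Per1-/- MEFs and PER2 lost in Per2-/- MEFs by western blotting. RNA levels do not measure protein. Because of the transcript level, the libraries labelled Per2-/- are named by their label throughout, also where a direction is drawn from them. The labels call every library induced neurons, but on day 0 12 neuron markers summed to a mean of only 36.9 to 46.4 FPKM per group while 12 fibroblast markers summed to 1676 to 1809 FPKM. On day 4 the neuron sum was 150.6 to 171 FPKM and the fibroblast sum 1728 to 1799 FPKM, and Rbfox3, a marker of mature neurons, stayed at or below 0.136 FPKM and was at 0 in 10 of 27 libraries. Sums of 10 endothelial and 10 muscle markers did not exceed 12.0 and 109.7 FPKM in any library. In such bulk samples, fewer cells of a type and less RNA per cell cannot be told apart.

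The 9 genes lie on 9 chromosomes of the mouse genome (GRCm38). Grem1 (ENSMUSG00000074934) spans chr2:113746164-113758646 on the minus strand, Inhba (ENSMUSG00000041324) chr13:16011851-16031621 on the plus strand, Tgfbr1 (ENSMUSG00000007613) chr4:47353222-47414931 on the plus strand and Tgfb2 (ENSMUSG00000039239) chr1:186622792-186705989 on the minus strand. Tgfb1 (ENSMUSG00000002603) spans chr7:25687002-25705077 on the plus strand, Tgfb3 (ENSMUSG00000021253) chr12:86056745-86079041 on the minus strand and Bmp4 (ENSMUSG00000021835) chr14:46383520-46390669 on the minus strand. Tgfbr2 (ENSMUSG00000032440) spans chr9:116084293-116175360 on the minus strand and Ltbp1 (ENSMUSG00000001870) chr17:75005568-75392512 on the plus strand. Genes on the other strand share exonic bases with 3 members, namely Tgfb2 (124 bases with Gm29491), Tgfb3 (163 with Gm37804 and 257 with Gm48008) and Bmp4 (89 with Gm15217), and since the libraries did not keep strand their reads cannot be told apart there. None of these overlapping genes exceeded 1.07 FPKM in any library.

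The 250 bases upstream of the RefSeq start (GRCm38.p6) are shown for 4 members, because Grem1 and Inhba had the largest falls of the set and Tgfbr1 and Tgfb2 were the members called higher. They are written 5′ to 3′ on the strand of the gene, with motif matches in capitals. Tgfbr1 has 2 start sites in the RefSeq table, and the one at the start of the gene model was used.
Grem1, chr2:113758649-113758898, minus strand: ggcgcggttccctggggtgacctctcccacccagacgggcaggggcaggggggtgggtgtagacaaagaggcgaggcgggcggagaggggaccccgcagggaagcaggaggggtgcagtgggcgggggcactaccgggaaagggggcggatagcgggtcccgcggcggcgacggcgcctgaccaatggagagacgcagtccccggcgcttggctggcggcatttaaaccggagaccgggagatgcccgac
Inhba, chr13:16011601-16011850, plus strand: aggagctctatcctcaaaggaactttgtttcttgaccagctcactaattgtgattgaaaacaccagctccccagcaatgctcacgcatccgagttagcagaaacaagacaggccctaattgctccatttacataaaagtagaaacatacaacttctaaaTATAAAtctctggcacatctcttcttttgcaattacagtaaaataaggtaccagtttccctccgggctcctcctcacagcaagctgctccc
Tgfbr1, chr4:47352972-47353221, plus strand: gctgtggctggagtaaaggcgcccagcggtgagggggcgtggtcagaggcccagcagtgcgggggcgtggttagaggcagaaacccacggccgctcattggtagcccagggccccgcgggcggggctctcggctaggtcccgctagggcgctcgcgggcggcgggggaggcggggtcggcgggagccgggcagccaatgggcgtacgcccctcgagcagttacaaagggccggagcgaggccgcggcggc
Tgfb2, chr1:186705990-186706239, minus strand: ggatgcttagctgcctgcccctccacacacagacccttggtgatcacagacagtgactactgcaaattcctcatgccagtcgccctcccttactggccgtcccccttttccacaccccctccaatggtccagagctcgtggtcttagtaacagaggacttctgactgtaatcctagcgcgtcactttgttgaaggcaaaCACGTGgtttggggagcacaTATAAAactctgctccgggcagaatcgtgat

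5 motifs were searched on both strands: the E-box CACGTG, which clock factors can bind, the AP-1 motif TGACTCA, the cyclic AMP response element TGACGTCA, the Smad palindrome GTCTAGAC and the TATA box TATAAA. RefSeq upstream sequences were matched for 8 of the 9 members, Tgfb3 being the one without. The Tgfb2 window held an E-box at -51 and a TATA box at -31 (first base relative to the start), and the Inhba window held TATAAA at -91. Among the windows not shown, Bmp4 had CACGTG at -188 and Ltbp1 had TGACGTCA at -73. The windows of Grem1, Tgfbr1, Tgfb1 and Tgfbr2 had none of the 5. G and C made up 72.0%, 74.8%, 75.2% and 58.4% of these windows, 43.2% for Inhba, 53.6% for Tgfb2, 63.2% for Bmp4 and 56.8% for Ltbp1. Of 32851 mouse upstream windows of the same length, 6.02% held CACGTG, 12.4% held TATAAA, 1.55% held TGACGTCA, 4.46% held TGACTCA and 0.167% held GTCTAGAC.

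In all 3 genotypes the transcripts of Grem1, Inhba and Tgfb3 fell between day 0 and day 2 and were still low on day 4, while Tgfbr1 rose. Ltbp1 fell by day 2 in all 3 genotypes and was called lower on day 4 in WT and Per1-/-. Tgfb1 fell by day 2 in WT and in the libraries labelled Per2-/-, Tgfb2 was called higher in WT on both days and for the label Per2-/- on day 4, and Bmp4 and Tgfbr2 were called in none of these comparisons. In WT, 2 members were called higher and 5 lower on day 2, where 40.5% of all tested genes were called (20.8% higher and 19.7% lower), and 2 higher and 4 lower on day 4 (43.8% of genes, 22.9% higher and 20.9% lower). In Per1-/- 1 member was called higher and 4 lower on day 2 (39.6% of genes, 20.8% higher and 18.8% lower), and the day 4 counts were the same in number (43.0%, 22.6% higher and 20.4% lower). For the label Per2-/- the counts were 1 higher and 5 lower on day 2 (35.5% of genes, 18.7% higher and 16.8% lower) and 2 higher and 3 lower on day 4 (40.3%, 21.6% higher and 18.8% lower). With so many genes called, the share of members called is to be read against these backgrounds.

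**Figure D1:**
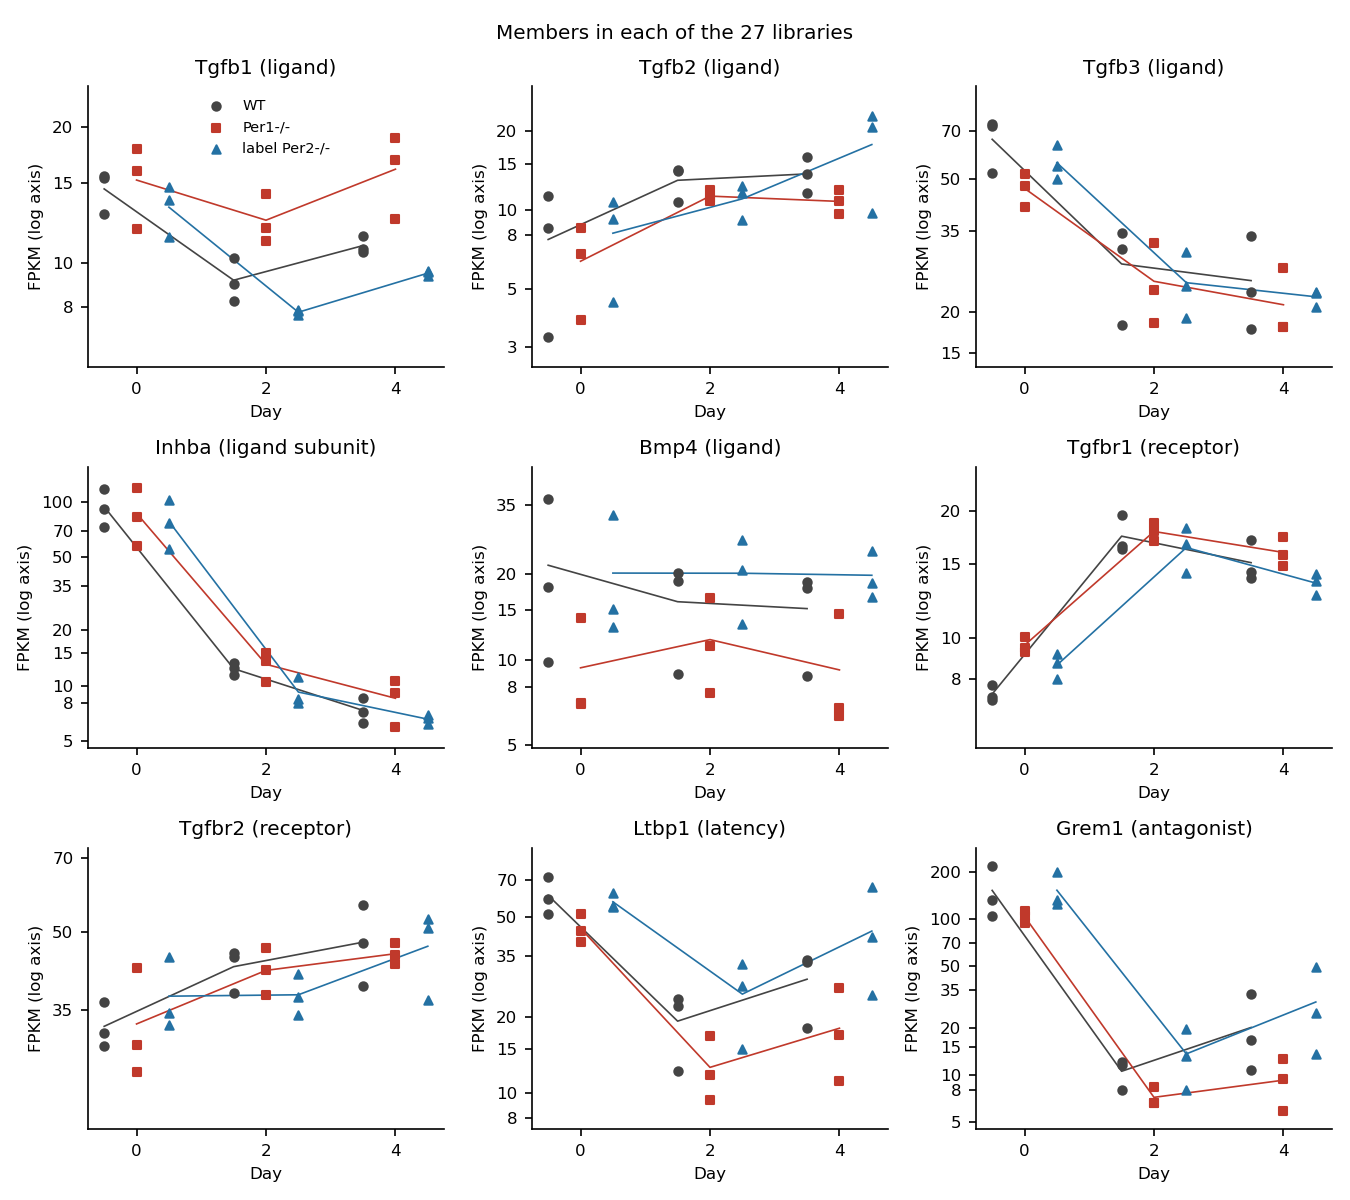
FPKM (log axis) of the 9 members in each of the 27 libraries by day, with WT as circles, Per1-/- as squares and the libraries labelled Per2-/- as triangles, set slightly apart, and lines through the mean of 3. Grem1 and Inhba lie at 55.7 FPKM or more in every library on day 0 and at 49.3 or less in every later library, while Tgfbr1 lies at 10.1 or less on day 0 and at 12.7 or more later.

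The scale of the table matters for these counts. The deposited FPKM sum to 333295 to 374624 per library on day 0 and to 261289 to 343225 on days 2 and 4, and rescaling every library to a common sum moved the median difference of the tested genes to 0.41 in WT on day 2 and 0.37 on day 4, to 0.38 and 0.26 in Per1-/- and to 0.31 and 0.25 where the label reads Per2-/-, from values near 0. On that scale the calls against day 0 were 5564 higher and 1253 lower in WT on day 2 and 5485 and 1511 on day 4, where the deposited scale gave 3101 and 2944, then 3414 and 3120. In Per1-/- they were 5317 and 1182, then 4687 and 1823 (deposited scale 3101 and 2811, then 3378 and 3043), and for the label Per2-/- 4630 and 1266, then 4434 and 1749 (2792 and 2508, then 3218 and 2800). The falls of Grem1 and Inhba and the rise of Tgfbr1 were called on both scales in every genotype on both days. Tgfbr2 was called higher in WT and Per1-/- on the rescaled one. Rescaling changed the members' counts to 3 higher and 4 lower on day 2 and 3 and 3 on day 4 in WT, to 3 and 3, then 3 and 4 in Per1-/-, and to 1 and 4, then 2 and 3 for the label Per2-/-, so the split of called members between higher and lower depended on the scale.

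Inhba, which encodes the activin A subunit, had the highest level of the 5 ligand members before induction. On day 0 Inhba stood at 119, 91.5 and 73.2 FPKM in WT, at 58.0, 119.7 and 83.3 FPKM in Per1-/- and at 103, 55.7 and 77.0 FPKM for the label Per2-/-. On day 2 the values were 13.3, 11.4 and 12.4 FPKM in WT, 10.5, 13.6 and 15.1 in Per1-/- and 11.1, 8.48 and 8.02 in the libraries labelled Per2-/-. By day 4 Inhba was at 7.15, 6.22 and 8.57 FPKM in WT, 5.92, 9.05 and 10.6 in Per1-/- and 6.87, 6.61 and 6.18 in the libraries labelled Per2-/-. Every later library was far below every day 0 library, with no overlap in any genotype. The fall by day 2 was 7.46-fold in WT (log2 fold change -2.90 ± 0.25, adjusted p = 6.2e-09), 6.41-fold in Per1-/- (-2.68 ± 0.25, adjusted p = 2.2e-08) and 8.28-fold in the libraries labelled Per2-/- (-3.05 ± 0.25, adjusted p = 4.0e-09). By day 4 it was 12.6-fold, 9.95-fold and 11.5-fold (adjusted p = 2.0e-10, 9.7e-10 and 4.9e-10). Ranked by WT mean among the 14932 tested genes, Inhba went from position 541 on day 0 to 6179 on day 4.

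Tgfb3 was the leading TGF-beta ligand transcript on day 0. It stood at 73.5, 72.5 and 52.1 FPKM in WT, 47.8, 41.4 and 51.8 in Per1-/- and 63.4, 55.0 and 50.01 for the label Per2-/-. On day 2 Tgfb3 was at 30.9, 34.4 and 18.2 FPKM in WT, 18.5, 32.2 and 23.3 in Per1-/- and 30.3, 19.2 and 23.9 for the label Per2-/-. On day 4 it was at 22.9, 33.8 and 17.7 FPKM in WT, 18.0, 26.998 and 18.0 in Per1-/- and 23.0, 20.7 and 22.8 in the libraries labelled Per2-/-. The lowest day 0 library was above the highest later one, so the days did not overlap, although WT replicate 3 was the lowest WT library on every day. Tgfb3 fell by day 2 with a log2 fold change of -1.28 ± 0.25 in WT (2.42-fold, adjusted p = 0.00019), -0.96 ± 0.25 in Per1-/- (1.94-fold, adjusted p = 0.0028) and -1.21 ± 0.25 in the libraries labelled Per2-/- (2.32-fold, adjusted p = 0.00037). By day 4 the falls were 2.72-fold, 2.27-fold and 2.51-fold (adjusted p = 4.7e-05, 0.00039 and 0.00013). The day 2 call in Per1-/- was lost on the rescaled scale (-0.56, adjusted p = 0.036).

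Tgfb1, the ligand best known from immune cells and wounds, fell by day 2 in 2 of the 3 genotypes. On day 0 Tgfb1 stood at 15.5, 12.8 and 15.4 FPKM in WT, 11.9, 15.96 and 17.9 in Per1-/- and 13.8, 11.4 and 14.7 for the label Per2-/-. On day 2 it was at 9.01, 8.23 and 10.3 FPKM in WT, 11.9, 11.2 and 14.2 in Per1-/- and 7.88, 7.82 and 7.66 for the label Per2-/-. On day 4 Tgfb1 reached 10.6, 10.7 and 11.5 FPKM in WT, 18.9, 12.5 and 16.9 in Per1-/- and 9.36, 9.54 and 9.61 in the libraries labelled Per2-/-. The days overlapped in Per1-/- and did not overlap in the other groups. Tgfb1 fell by day 2 in WT (-0.66 ± 0.14, 1.58-fold, adjusted p = 0.00049) and in the libraries labelled Per2-/- (-0.75 ± 0.14, 1.69-fold, adjusted p = 0.00016), and was not called in Per1-/- (-0.28 ± 0.14, adjusted p = 0.10). By day 4 the differences from day 0 were -0.41 ± 0.14, 0.08 ± 0.14 and -0.47 ± 0.14 in WT, Per1-/- and the libraries labelled Per2-/-, and none was called. Both day 2 calls were lost on the rescaled scale, where the values were -0.23 in WT and -0.43 in the libraries labelled Per2-/-.

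Tgfb2 had the lowest and most uneven level of the 3 TGF-beta ligands on day 0. It stood at 8.57, 11.3 and 3.26 FPKM in WT, 3.802, 8.53 and 6.78 in Per1-/- and 10.7, 4.46 and 9.28 for the label Per2-/-. On day 2 Tgfb2 was at 14.1, 14.2 and 10.7 FPKM in WT, 11.9, 11.2 and 10.8 in Per1-/- and 12.3, 9.18 and 11.6 for the label Per2-/-. On day 4 it was at 15.9, 13.7 and 11.6 FPKM in WT, 11.9, 10.8 and 9.64 in Per1-/- and 22.9, 9.75 and 20.7 in the libraries labelled Per2-/-. The day 0 libraries lay below the later ones except that the highest day 0 values overlapped the lowest later values in WT on day 2 and in the libraries labelled Per2-/- on both days. Tgfb2 was called higher in WT on day 2 (0.91 ± 0.38, 1.87-fold, adjusted p = 0.047) and day 4 (0.99 ± 0.38, 1.98-fold, adjusted p = 0.030) and on day 4 also for the label Per2-/- (1.12 ± 0.38, 2.17-fold, adjusted p = 0.016). In Per1-/- the differences were of like size, 0.89 ± 0.38 and 0.82 ± 0.38, and did not pass the threshold (adjusted p = 0.051 and 0.069). With the replicate number as a block, Tgfb2 was called in Per1-/- on day 2 (adjusted p = 0.0099) and on day 4 (adjusted p = 0.015), of which the day 2 comparison is one where the numbers pair the libraries, and it was called there on the rescaled scale too (1.28 and 1.09, adjusted p = 0.0065 and 0.018). The day 2 call in Per1-/- was also made with a minimum mean of 1 FPKM, with the compared groups alone and with voom weights (adjusted p from 0.040 to 0.049). The WT calls were lost without day 0 replicate 3, the lowest of all libraries (0.38 on day 2 and 0.47 on day 4, adjusted p = 0.37 and 0.27). They were also lost without WT day 2 replicate 1 or 2 (0.84 in both) and without WT day 4 replicate 1 or 2 (0.88 and 0.98), and with no filter on low values or with the compared groups alone (adjusted p from 0.062 to 0.11). For the label Per2-/- the day 4 call was lost without day 0 replicate 2 (0.74, adjusted p = 0.12), day 4 replicate 1 (0.89) or day 4 replicate 3 (0.96). It was also lost with the compared groups alone (adjusted p = 0.067). In Per1-/- Tgfb2 was called on both days without day 0 replicate 2 (1.14 and 1.07, adjusted p = 0.029 and 0.037).

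The summed TGF-beta ligand transcript was lower after day 0, and its make-up differed. Over the 9 libraries of a day, the sum of Tgfb1, Tgfb2 and Tgfb3 had a median of 74.0 FPKM (63.6 to 97.6) on day 0, 48.3 FPKM (36.2 to 56.9) on day 2 and 49.4 FPKM (40.01 to 58.3) on day 4, and day 0 did not overlap the later days. The share of Tgfb3 in the sum had a median of 73.7% on day 0, 55.4% on day 2 and 43.4% on day 4. The share of Tgfb2 went from 8.87% (4.61% to 12.9%) on day 0 to 25.4% (20.4% to 28.1%) on day 2 and 24.4% (21.5% to 41.5%) on day 4, again with no overlap between day 0 and later days. Tgfb1 made up 18.8%, 20.5% and 23.8%, with overlap between the days. Inhba was about as abundant as all 3 TGF-beta ligands together on day 0, with a median ratio of 1.04, and had a ratio of 0.246 on day 2 and 0.145 on day 4.

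**Figure D2:**
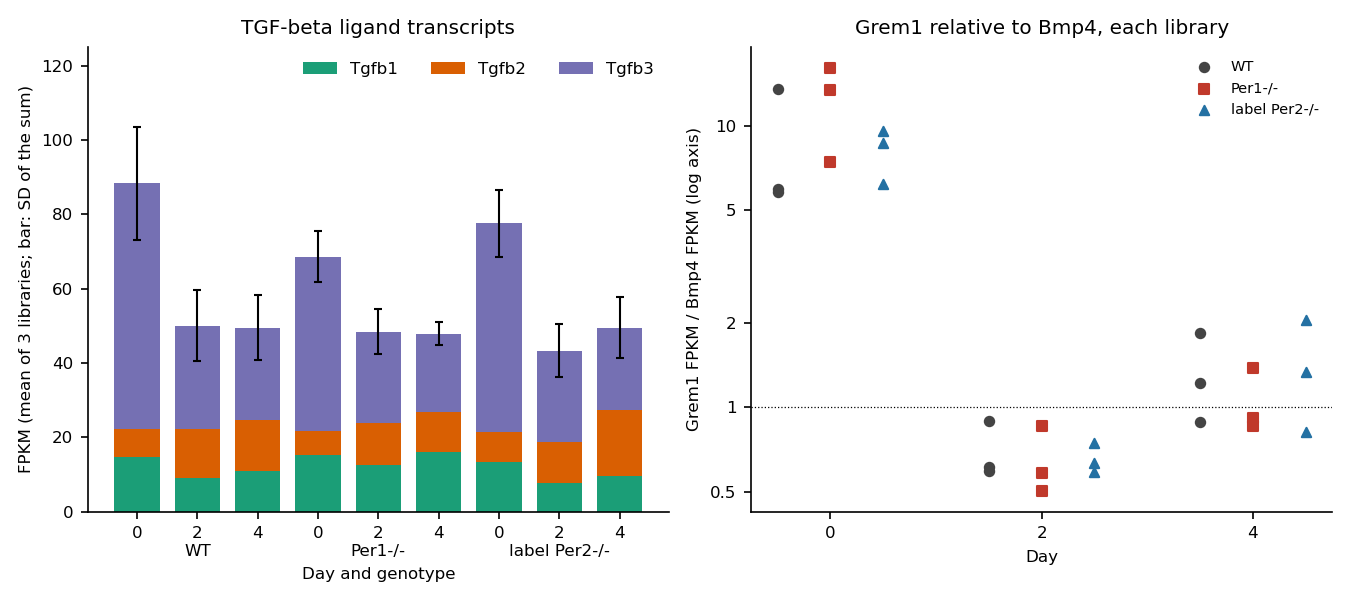
Left, mean FPKM of Tgfb1, Tgfb2 and Tgfb3 stacked for each group of 3 libraries, with the SD of their sum as the error bar. Right, the ratio of Grem1 to Bmp4 FPKM in each library (log axis, dotted line at 1), which was 5.80 or more in all 9 day 0 libraries and 2.04 or less in all 18 later ones.

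Bmp4, a BMP ligand with roles in patterning of the embryo and in mesenchymal cells, varied widely between replicates and little between days. The WT libraries began at 18.1, 36.6 and 9.78 FPKM, were at 18.9, 20.2 and 8.91 by day 2 and ended at 17.9, 18.7 and 8.76. In Per1-/- Bmp4 was at 6.99, 14.1 and 7.05 FPKM, then 7.61, 16.5 and 11.2, then 6.36, 14.5 and 6.74 over the same days. In the libraries labelled Per2-/- the values were 32.3, 13.1 and 15.1 FPKM, then 26.3, 13.4 and 20.8, then 24.2, 16.6 and 18.6. WT replicate 3 was the lowest WT library and Per1-/- replicate 2 the highest Per1-/- library on each day. No difference of Bmp4 from day 0 was called, with log2 fold changes from -0.38 to 0.34 and an SE of 0.48.

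Among the receptors, Tgfbr1, the type I receptor kinase for TGF-beta, rose in every genotype. On day 0 Tgfbr1 stood at 7.73, 7.12 and 7.23 FPKM in WT, 9.48, 10.1 and 9.27 in Per1-/- and 8.72, 7.98 and 9.16 for the label Per2-/-. On day 2 it was at 16.5, 16.2 and 19.6 FPKM in WT, 18.7, 17.9 and 17.0 in Per1-/- and 14.3, 18.2 and 16.7 for the label Per2-/-. On day 4 Tgfbr1 was at 13.9, 14.3 and 17.1 FPKM in WT, 14.8, 17.3 and 15.7 in Per1-/- and 13.6, 14.2 and 12.7 in the libraries labelled Per2-/-. All 18 later libraries were above all 9 day 0 libraries, and replicates were close together, with an SE of 0.10 on the log2 scale. By day 2 Tgfbr1 rose 2.34-fold in WT (1.23, adjusted p = 1.4e-09), 1.85-fold in Per1-/- (0.89, adjusted p = 1.3e-07) and 1.88-fold in the libraries labelled Per2-/- (0.91, adjusted p = 1.0e-07). By day 4 the rise was 2.03-fold, 1.65-fold and 1.56-fold (adjusted p = 1.4e-08, 1.7e-06 and 8.6e-06).

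Tgfbr2, the type II receptor that binds the ligand first, was several times as abundant as Tgfbr1 on day 0, with a median ratio of 3.84 (2.62 to 5.58) over 9 libraries. Its day 0 mean was 32.5 ± 3.4 FPKM in WT, 32.8 ± 8.4 in Per1-/- and 37.3 ± 6.4 for the label Per2-/- (SD, n = 3). On day 2 Tgfbr2 was at 42.6 ± 4.2, 41.9 ± 4.5 and 37.5 ± 3.5 FPKM, and on day 4 at 47.7 ± 8.7, 45.3 ± 2.2 and 46.8 ± 9.0 FPKM. The WT days 2 and 4 libraries were all above the day 0 ones, but the difference was not called, at 0.39 ± 0.17 (adjusted p = 0.0504) and 0.54 ± 0.17 (adjusted p = 0.0083). In Per1-/- the day 4 libraries (43.2 to 47.6 FPKM) were also all above those of day 0 (26.4 to 42.3 FPKM). Such a rise without overlap held for 32.6% and 33.1% of tested genes in WT, and for 30.5% in Per1-/- on day 4. On the rescaled scale Tgfbr2 was called in WT (0.83 and 0.94) and in Per1-/- (0.77 and 0.76). On the deposited scale it passed on day 4 without WT day 0 replicate 2 (0.62) or WT day 4 replicate 3 (0.68), and in Per1-/- without day 0 replicate 1 (0.69). The ratio of Tgfbr2 to Tgfbr1 had a median of 2.46 on day 2 and 3.21 on day 4.

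Grem1, a secreted antagonist of BMP2, BMP4 and BMP7, was the most abundant member on day 0 and showed the largest fall by day 2. On day 0 Grem1 stood at 105, 218 and 132 FPKM in WT, 112, 104 and 94.2 in Per1-/- and 200.4, 124.8 and 131 for the label Per2-/-. On day 2 it was at 11.6, 12.0 and 7.94 FPKM in WT, 6.56, 8.38 and 6.53 in Per1-/- and 19.7, 7.93 and 13.1 for the label Per2-/-. On day 4 Grem1 was at 32.9, 16.6 and 10.7 FPKM in WT, 5.82, 12.5 and 9.31 in Per1-/- and 49.3, 13.6 and 24.8 in the libraries labelled Per2-/-. The lowest day 0 library lay above the highest later library, which was replicate 1 of the libraries labelled Per2-/- on day 4. The fall by day 2 was 13.9-fold in WT (-3.79 ± 0.43, adjusted p = 2.0e-07), 14.3-fold in Per1-/- (-3.84 ± 0.43, adjusted p = 2.0e-07) and 11.6-fold in the libraries labelled Per2-/- (-3.54 ± 0.43, adjusted p = 6.6e-07). By day 4 it was 7.99-fold, 11.6-fold and 5.80-fold (adjusted p = 4.0e-06, 4.9e-07 and 3.4e-05). The ratio of Grem1 to Bmp4 had a median of 8.69 (5.80 to 15.99) on day 0, 0.613 (0.507 to 0.892) on day 2 and 1.22 (0.817 to 2.04) on day 4, with no overlap between day 0 and the later days.

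Ltbp1, which tethers latent TGF-beta to the matrix, fell and then stood higher again in part of the libraries. On day 0 Ltbp1 was at 51.5, 72.1 and 58.9 FPKM in WT, 39.8, 51.6 and 43.8 in Per1-/- and 62.4, 54.5 and 55.2 for the label Per2-/-. On day 2 it was at 22.2, 23.6 and 12.2 FPKM in WT, 9.40, 16.8 and 11.8 in Per1-/- and 32.5, 15.1 and 26.6 for the label Per2-/-. On day 4 Ltbp1 was at 33.1, 33.7 and 18.2 FPKM in WT, 11.2, 26.1 and 17.0 in Per1-/- and 65.6, 24.5 and 41.6 in the libraries labelled Per2-/-. All 9 day 2 libraries were below all 9 day 0 libraries, whereas on day 4 replicate 1 of the libraries labelled Per2-/- was above its own group's day 0 values. Ltbp1 fell by day 2 in WT (-1.69 ± 0.36, 3.23-fold, adjusted p = 0.00039), Per1-/- (-1.85 ± 0.36, 3.62-fold, adjusted p = 0.00016) and the libraries labelled Per2-/- (-1.28 ± 0.36, 2.43-fold, adjusted p = 0.0048). By day 4 it was called lower in WT (-1.14 ± 0.36, 2.20-fold, adjusted p = 0.0091) and Per1-/- (-1.38 ± 0.36, 2.61-fold, adjusted p = 0.0022) and was not called in the libraries labelled Per2-/- (-0.49 ± 0.36, adjusted p = 0.24). The WT call on day 4 was lost on the rescaled scale (-0.74, adjusted p = 0.060) and without WT day 4 replicate 3 (-0.85, adjusted p = 0.065).

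**Figure D3:**
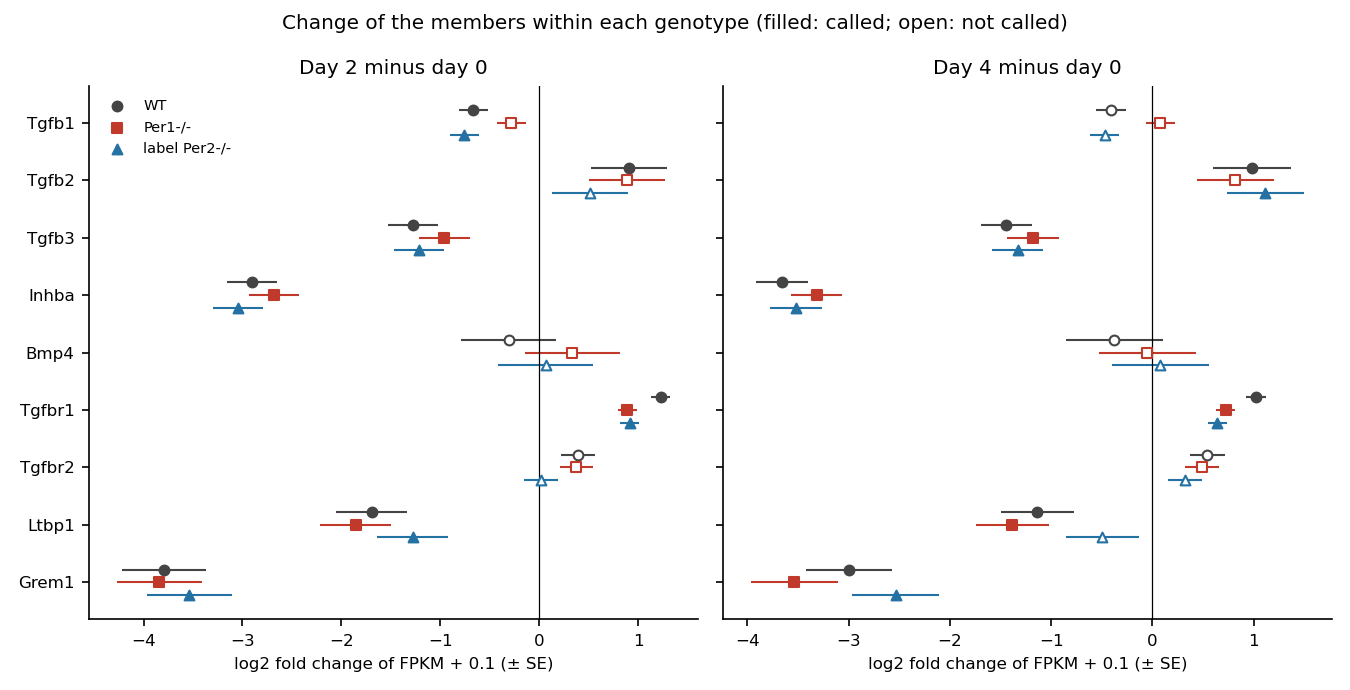
Log2 fold change (± SE) of each member on day 2 and day 4 against day 0, with WT as circles, Per1-/- as squares and the libraries labelled Per2-/- as triangles, filled where called. Inhba and Grem1 lie at -2.54 or below in every case, Tgfbr1 lies at 0.64 or above, and the points for Bmp4 and Tgfbr2 are all open.

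Over all 27 libraries, 4 members were lower in every day 2 library than in every day 0 library (Tgfb3, Inhba, Ltbp1 and Grem1), which holds for 21.5% of the tested genes, and 1 was higher (Tgfbr1), which holds for 19.7%. On day 4 this held for 3 lower members (Tgfb3, Inhba and Grem1, 22.7% of tested genes) and 1 higher (Tgfbr1, 19.8%). Within a genotype, with 3 libraries against 3, the groups failed to overlap far more often, for 32.6% of genes as higher and 34.6% as lower in WT on day 2, for 29.4% and 31.1% in Per1-/- and for 30.0% and 31.5% where the label reads Per2-/-. On day 4 the Per1-/- shares were 30.5% and 32.1%, and those of the label Per2-/- were 31.0% and 32.8%, with 33.1% and 35.5% in WT.

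Between day 2 and day 4 no member was called in any genotype by the model over all groups with no replicate block, while 3.21% of tested genes were called in WT (1.62% higher and 1.59% lower), 2.44% in Per1-/- (1.38% and 1.06%) and 4.06% for the label Per2-/- (2.32% and 1.74%). At an unadjusted p under 0.05 the members so marked were Inhba and Tgfbr1 in WT, Tgfb1 and Inhba in Per1-/- and Tgfbr1, Ltbp1 and Grem1 in the libraries labelled Per2-/-. Of the 14932 tested genes, 2977 in WT, 2983 in Per1-/- and 3380 for the label Per2-/- were marked in the same way. Inhba had log2 fold changes of -0.76 ± 0.25 in WT, -0.63 ± 0.25 in Per1-/- and -0.47 ± 0.25 in the libraries labelled Per2-/- (adjusted p = 0.089, 0.16 and 0.28). For Grem1 the values were 0.80 ± 0.43, 0.30 ± 0.43 and 1.00 ± 0.43 (adjusted p = 0.31, 0.75 and 0.16). With the replicate number as a block Inhba was called lower in WT (adjusted p = 0.015) and in Per1-/- (adjusted p = 0.040), where the numbers pair the libraries, and the calls over all genes went from 242 higher and 237 lower to 460 and 369 in WT and from 206 and 158 to 411 and 319 in Per1-/-. For the label Per2-/-, where the pairing is not met by every pair, the block called Grem1 and Ltbp1 higher (adjusted p = 0.046 and 0.026). Inhba and Tgfbr1 were lower on day 4 than on day 2 in all 9 pairs of same-numbered libraries, as were 14.3% of tested genes, and Tgfb1, Tgfbr2 and Ltbp1 were higher in all 9, as were 12.6%. Those of the label Per2-/- are matched by number only, since the numbers were not taken as paired there.

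Between genotypes on the same day, 1 of the 9 members was called in 1 comparison. Tgfb1 was higher in Per1-/- than in the libraries labelled Per2-/- on day 4, by 1.66-fold (0.74 ± 0.14, adjusted p = 0.019), where 0.556% of all tested genes were called (66 higher and 17 lower, and 9 and 10 on the rescaled scale). On day 2 the difference was 0.66 ± 0.14 (adjusted p = 0.090), and 0.0737% of genes were called. Against WT, Tgfb1 in Per1-/- differed by 0.43 ± 0.14 on day 2 (adjusted p = 1.0, 0.0067% of genes called) and 0.54 ± 0.14 on day 4 (adjusted p = 0.42, 0.0268% called), and on day 0 by 0.05 ± 0.14. In level, all 3 Per1-/- libraries were above all 6 others on day 2 and on day 4, a pattern that 3.07% and 4.92% of the tested genes had, while no member was below all 6 others (1.82% and 2.67% of genes were). The day 4 call did not hold when only the compared groups were fitted (adjusted p = 0.12) or on the rescaled scale (0.65, adjusted p = 0.14). It was also lost without Per1-/- replicate 1 (0.61, adjusted p = 0.14) or 3 (0.69, adjusted p = 0.092) and without replicate 1 (0.72, adjusted p = 0.083) or 3 (0.74, adjusted p = 0.084) of the label Per2-/-, and it held without either replicate 2 (0.90 and 0.74).

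Macrophage markers were, like Tgfb1, higher in all 3 Per1-/- libraries than in the other groups on days 2 and 4. Over days, the markers and Tgfb1 moved oppositely in some comparisons and alike in others. From day 0 to day 4 the mean of the summed markers went from 339 to 952 FPKM in WT and from 450 to 682 FPKM for the label Per2-/-, while mean Tgfb1 went from 14.6 to 10.9 and from 13.3 to 9.50 FPKM. In Per1-/- the marker mean went from 611 to 2058 FPKM and mean Tgfb1 from 15.3 to 16.1 FPKM, with overlap of the Tgfb1 values. From day 2 to day 4 both means rose in WT, Per1-/- and the label Per2-/-. The day 2 means were 473, 997 and 337 FPKM for the markers and 9.17, 12.4 and 7.79 FPKM for Tgfb1. The sum of 20 macrophage markers was 870, 697 and 1424 FPKM in Per1-/- on day 2 against 356 to 582 in WT and 202 to 424 for the label Per2-/-. On day 4 it was 2415, 1367 and 2393 FPKM in Per1-/-, against 686 to 1211 in WT and 521 to 887 for the label Per2-/-. On day 0 the groups overlapped, at 241 to 531 FPKM in WT, 224 to 1231 in Per1-/- and 148 to 620 in the libraries labelled Per2-/-. Within Per1-/- on day 4, replicate 2 had both the lowest Tgfb1 and the lowest marker sum, and replicate 3 had the highest of both on day 0 and on day 2. For the label Per2-/- on day 2 the library with the highest marker sum, replicate 3, had the lowest Tgfb1, in a group spanning only 7.66 to 7.88 FPKM. The same library had the highest of both in WT on each day, and in Per1-/- and the label Per2-/- on day 4. For the label Per2-/- on day 0 the highest of both lay in different libraries. All 20 markers had a log2 fold change above 0 in Per1-/- against the libraries labelled Per2-/- on day 4, with a median of 1.41, and limma called none of them, although 17 had an unadjusted p under 0.05. In that comparison 1974 of the 14932 tested genes had an unadjusted p under 0.05. Against day 0, 17 of the 20 were called higher on day 4 in WT, 19 in Per1-/- and 10 for the label Per2-/-, and none lower. Between genotypes, the paper used another method, DESeq2. It reported many macrophage genes among those higher in Per1-/- than in both other genotypes on days 2 and 4. Its flow cytometry, over 10 days of reprogramming, found a larger increase of the macrophage fraction in Per1-/- cultures, with the excess stated for day 10. The part of macrophages in the Tgfb1 results was not tested.

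**Figure D4:**
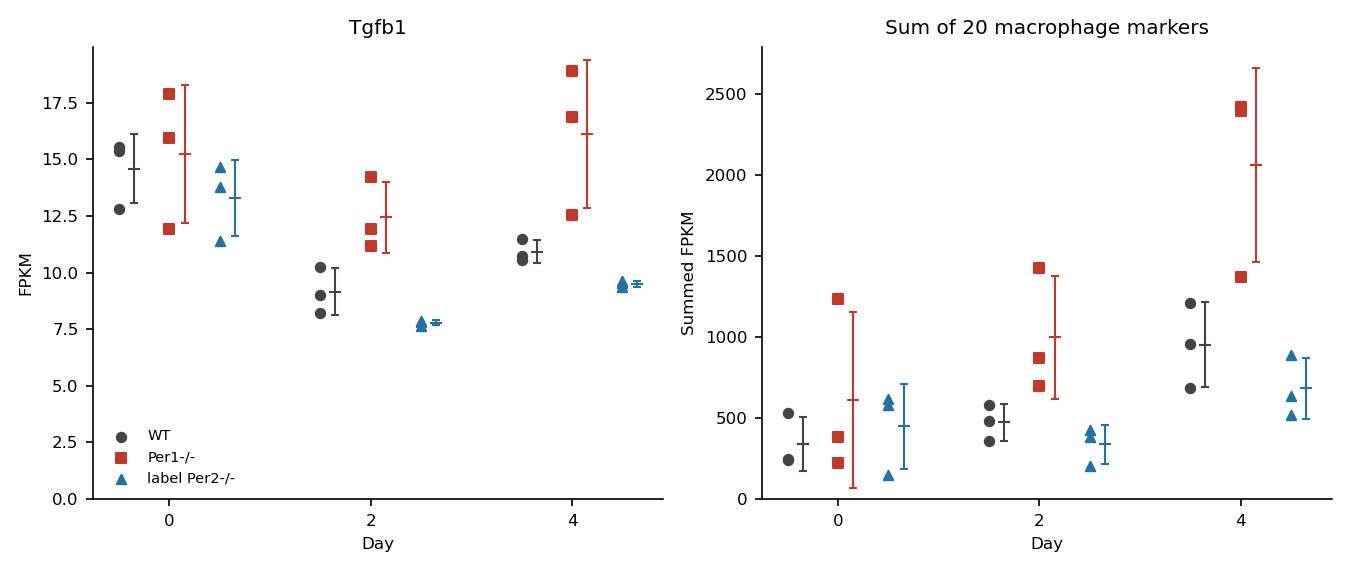
Tgfb1 FPKM (left) and the summed FPKM of 20 macrophage markers (right) in each library by day, with the mean and SD of 3 libraries beside the points. On days 2 and 4 the 3 Per1-/- squares lie above all WT and label Per2-/- points in both panels, and on day 0 the groups overlap.

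The other members did not differ between genotypes beyond the threshold. Tgfbr1 on day 0 was higher in all 3 Per1-/- libraries than in all 6 others (0.643% of tested genes), with a difference from WT of 0.38 ± 0.10 (adjusted p = 0.76, 0.0134% of genes called). Grem1 and Ltbp1 had log2 differences of -1.53 ± 0.43 and -1.24 ± 0.36 between Per1-/- and the libraries labelled Per2-/- on day 4 (adjusted p = 0.11 and 0.12), and both were called when day 4 replicate 2 of the latter was left out (-1.98 and -1.61, adjusted p = 0.033 and 0.041). That library had the lowest Grem1, Ltbp1 and Tgfb2 of its group. Bmp4 was lower in every Per1-/- library than in every library labelled Per2-/- on day 4 (-1.19 ± 0.48, adjusted p = 0.27), as were 8.18% of tested genes, and 11.0% were higher in the same way. Between WT and the libraries labelled Per2-/- the members' differences lay between -0.43 and 0.57 with adjusted p of 1 on each day (0.0067%, 0.0268% and 0.0067% of genes called on days 0, 2 and 4). In the test of whether the change from day 0 differed between a mutant group and WT, no member was called by limma, and neither was any of the 14932 genes. At an unadjusted p under 0.05 there were 306 to 500 such genes per contrast, among them Tgfbr1 in all 4 contrasts (-0.30 to -0.38) and Tgfb1 for Per1-/- on day 4 (0.49 ± 0.20). These numbers are a smaller share of the 14932 genes than 0.05, so being among them carries little weight. The 4 contrasts share the WT day 0 libraries and are not independent.

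The rest of the pathway was taken from lists of other ligands, receptors, extracellular regulators, intracellular Smads and modulators, and known targets of each branch. Their counts are to be read against the shares of all tested genes called. In WT these were 20.8% higher and 19.7% lower on day 2 and 22.9% and 20.9% on day 4. In Per1-/- they were 20.8% and 18.8%, then 22.6% and 20.4%, and for the label Per2-/- 18.7% and 16.8%, then 21.6% and 18.8%. Genes that TGF-beta is known to induce in fibroblasts were mostly lower after day 0: of 24 tested targets, 14 were called lower and 3 higher in WT on day 2, and 15 lower and 4 higher on day 4, with medians of -1.01 and -1.33 against -0.01 and -0.02 for all tested genes. In Per1-/- the counts were 14 lower and 3 higher on day 2 and 16 lower and 4 higher on day 4, and in the libraries labelled Per2-/- 16 lower and 2 higher, then 15 lower and 4 higher. On the rescaled scale 12 were called lower on day 2 and 15 on day 4 in each genotype. Cnn1, a smooth muscle calponin, went from 154 ± 44 FPKM in WT on day 0 to 7.51 ± 1.4 FPKM on day 2 (log2 fold change -4.31 ± 0.46). The targets called higher included the matrix genes Col3a1 (129 ± 9.9 to 715 ± 156 FPKM in WT, 2.45 ± 0.35) and Postn (1.42 ± 0.43). Col3a1 and Postn are also matrix genes of fibroblasts at large, and Col3a1 reached 1082 ± 80 FPKM on day 4.

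**Figure D5:**
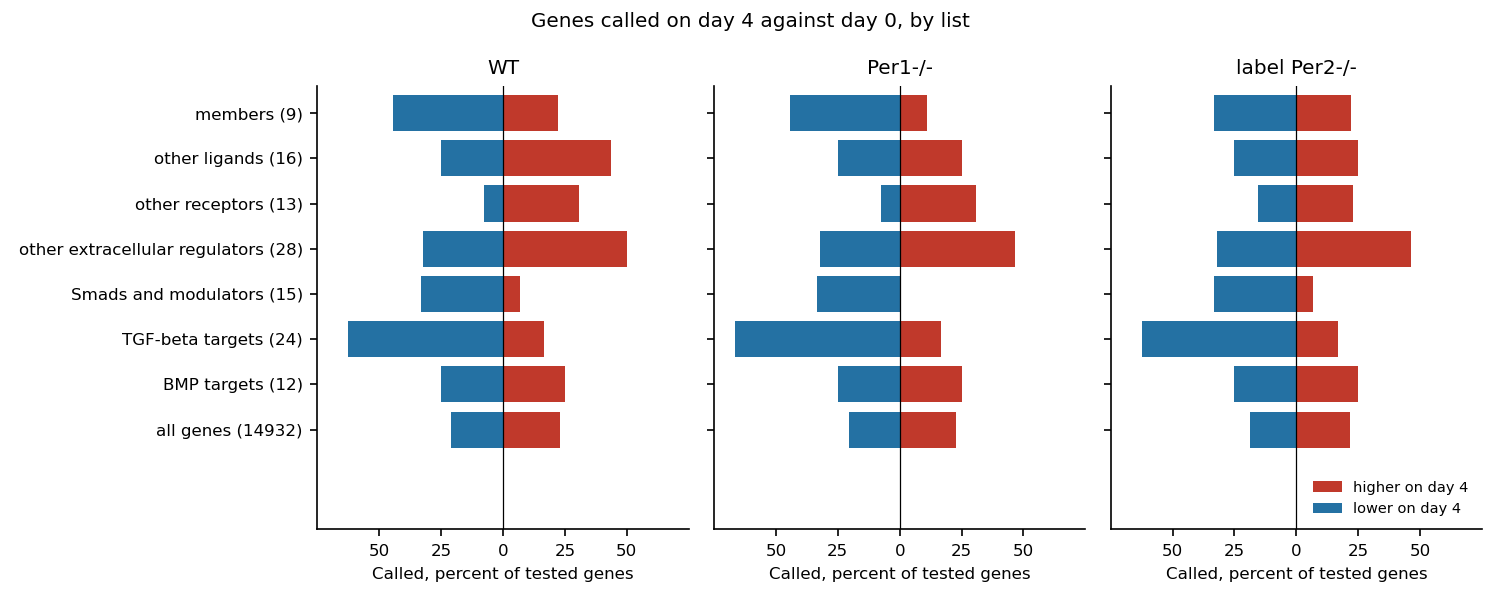
Share of the tested genes of each list called lower (left of 0) or higher (right of 0) on day 4 against day 0 in each genotype, with the number tested in brackets and all 14932 genes as the last bar. In WT 15 of 24 TGF-beta targets were called lower, against 20.9% of all genes.

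The BMP targets did not share one direction. Of 12, 5 were called higher and 3 lower in WT on day 2, 6 and 3 in Per1-/- and 4 and 3 in the libraries labelled Per2-/-, and on day 4 3 were higher and 3 lower in each genotype. Over all tested genes, 40.5%, 39.6% and 35.5% were called in these genotypes on day 2, and 43.8%, 43.0% and 40.3% on day 4. On the rescaled scale the day 4 counts of the BMP targets were 6 higher and 3 lower in WT and Per1-/-, and 5 and 2 for the label Per2-/-. Atoh8, a transcription factor gene, rose from 9.32 ± 7.3 FPKM to 52.6 ± 8.1 FPKM in WT on day 2 (2.74 ± 0.35) and was at 27.5 ± 2.3 FPKM on day 4. Hey1 rose (2.62 ± 0.48), and Msx2 (-1.77 ± 0.60) and the pseudoreceptor gene Bambi (-1.42 ± 0.26) fell in the same comparison.

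Other ligands moved in both directions. Of 26 listed, 16 passed the filter on low values, and of these 6 were called higher and 4 lower in WT on day 2, and 4 and 4 in each of the other groups. The shares of all tested genes called there were 40.5% in WT, 39.6% in Per1-/- and 35.5% for the label Per2-/-. On the rescaled scale the counts were 7 higher and 4 lower in WT and in Per1-/-, and 6 and 4 for the label Per2-/-. Bmp7 rose from 0.173 ± 0.13 FPKM on day 0 to 32.4 ± 11 FPKM on day 2 in WT (6.96 ± 0.39), from 0.368 to 27.8 FPKM in Per1-/- and from 0.348 to 23.5 FPKM in the libraries labelled Per2-/-, which put its transcript above that of Bmp4 (15.99, 11.8 and 20.1 FPKM). On day 4 Bmp7 was down again to 9.74, 10.4 and 5.25 FPKM, a fall from day 2 called in all 3 genotypes (-1.73, -1.40 and -2.14). Inhbb, the other activin chain, fell with Inhba, from 19.6 ± 3.3 to 2.60 ± 0.37 FPKM in WT (-2.86 ± 0.24). Bmp8b fell in WT (-4.94 ± 0.68) from a low and uneven level of 2.06 to 9.37 FPKM.

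Among 13 tested receptors and co-receptors, 5 were called higher and 2 lower in WT on day 2, where 40.5% of all tested genes were called. On the rescaled scale 7 were higher and 1 lower. Acvr2b (1.25 ± 0.31) and the BMP co-receptor Rgmb (1.09 ± 0.23) rose, and Bambi and the endothelial-type receptor gene Acvrl1 (-0.76 ± 0.14) fell. Acvrl1 rose again from day 2 to day 4 in all 3 genotypes (1.10, 0.88 and 1.22 with an SE of 0.14). Of 28 tested extracellular regulators, 9 were called higher and 9 lower in WT on day 2 (40.5% of all tested genes were called) and 14 and 9 on day 4 (43.8%). On the rescaled scale these counts were 14 and 8 on day 2 and 15 and 8 on day 4. Lrrc32, which presents latent TGF-beta at the cell surface, fell from 101 ± 28 to 6.60 ± 2.8 FPKM in WT (-3.96 ± 0.36), alongside Ltbp1. The antagonist genes Sostdc1 (3.36 ± 0.62) and Chrdl1 (2.53 ± 0.35) rose but reached only 1.60 ± 0.29 and 1.86 ± 0.46 FPKM. Decorin (Dcn), a matrix proteoglycan that binds TGF-beta, was called higher on day 4 in WT, at 128 ± 12 FPKM against 10.1 ± 6.3 on day 0 (3.93).

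Of the 15 Smads and modulators, 2 were called higher and 4 lower in WT on day 2, 2 and 3 in Per1-/- and 1 and 4 in the libraries labelled Per2-/-. These counts were near the shares of all tested genes called, at 40.5%, 39.6% and 35.5%. Their direction depended on the scale. On the rescaled one 4 were higher and 2 lower in WT, 5 and 2 in Per1-/- and 2 and 2 for the label Per2-/-. The feedback inhibitors Smad7 (18.0 ± 3.9 to 6.63 ± 0.65 FPKM in WT, -1.41 ± 0.22) and Pmepa1 (71.1 ± 10.5 to 18.1 ± 2.1 FPKM, -1.96 ± 0.17), both of which TGF-beta induces and which are also counted among the targets, fell in all 3 genotypes. Smad5, which carries BMP signals, rose from 10.6 ± 0.74 to 18.1 ± 1.4 FPKM (0.76 ± 0.10). Between day 2 and day 4 the repressors Skil and Tgif1 fell in all 3 genotypes, with log2 fold changes of -0.78 and -0.72 in WT. Of the 100 tested genes in these 6 lists, limma called none between genotypes on any day or for a different change from day 0, and at an unadjusted p under 0.05 there were 1 to 16 per genotype comparison and 0 to 3 per difference of change. Over all 14932 tested genes there were 410 to 1974 per genotype comparison and 306 to 500 per difference of change. The highest count of each kind of genotype comparison was that of Per1-/- against the label Per2-/- on day 4.

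The genes whose levels were most like each member over the 27 libraries were found by Pearson's r of log2(FPKM + 0.1), given without a test because days and genotypes are shared. Inhba was most like Hspb1 (r = 0.993), Fkbp1a (0.987) and Htr2a (0.986), and Grem1 most like Slc4a2 (0.962), Emp2 (0.961) and Cspg4 (0.961). Tgfbr1 was most like Mpped2 (0.969), Gna14 (0.969) and Ralgps2 (0.968), and Tgfb3 most like Unc5b (0.948), Pgrmc1 (0.942) and Wls (0.941). Tgfb1 stood with Rbm47 (0.945), Rhog (0.927) and Cndp2 (0.915), and these kept r of 0.862, 0.778 and 0.735 after the mean of each genotype and day was subtracted. After the same subtraction, r for the other members ran from 0.553 (Tgfbr1 with Mpped2) to 0.911 (Ltbp1 with Cav1). For Ltbp1 the genes were Cav1 (0.963), Rassf7 (0.946) and Papss2 (0.945), for Tgfbr2 Nfix (0.878), Nfatc4 (0.877) and Cpxm1 (0.875), for Tgfb2 Fgfrl1 (0.889), Gm48908 (0.879) and Serpinb8 (0.861), and for Bmp4 Hoxd13 (0.876), Ppm1l (0.859) and Mecom (0.851).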

How the data were processed

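The deposited table held FPKM for 54532 genes in 27 libraries, which the authors made from paired-end reads of poly(A), nondirectional libraries. The submitters' processing notes name HISAT2 2.0.5 and featureCounts 1.5.0-p3, and the labels give the mouse build mm10 (GRCm38). In all libraries 100% of the values came out as whole fragments (tolerance 0.01), and their scale followed a median-of-ratios size factor rather than the library's own total, from which it deviated by up to 13.9%. Depth was therefore read from the recovered fragments. Column totals of the FPKM differ between days, and no table of counts was used here.

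Libraries were grouped by genotype and day from their labels. Values were tested as log2(FPKM + 0.1) with limma 3.58.1 (R 4.3.3, linear model of 9 groups, empirical Bayes with trend) over the 14932 genes whose mean reached 0.5 FPKM, with Benjamini-Hochberg adjustment over all of them. All 9 members passed that filter. On this scale the fold changes of low genes are understated. p-values measure the spread between the deposited replicates. The script was tested on simulated data. Levels, ratios and correlations were computed with Python 3.11.15, pandas 2.3.3 and numpy 2.4.6, and plots with matplotlib 3.10.9. The members are named in every comparison, and from each other pathway list up to 2 called genes with the largest and 2 with the smallest log2 fold change per comparison may be named, together with the 3 genes most like each member. The members and lists were chosen with earlier results of these data known. Alternatives were pseudocounts of 1 and 0.01, a minimum mean of 1 FPKM or none, replicate number as a block, a fit to the compared groups alone, rescaling to a common sum, precision weights from the recovered fragments (voom), and leaving out each library. The values of some named genes are not reported here. Replicate numbers were checked for pairing by the correlation of deviations from the group means over all tested genes. Every same-numbered pair exceeded 0.1 in 3 of 9 comparisons over days (WT days 2 and 4, 0.127 to 0.196, Per1-/- days 0 and 2, 0.150 to 0.294, and Per1-/- days 2 and 4, 0.140 to 0.284) and in 0 of 9 between genotypes, so numbers were taken as paired in those 3 only, from the data and not from the labels.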

Additional observations from a re-analysis of the deposited data

How the results depend on the processing

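Over 198 member differences, of which 35 were called, no called value changed sign under any alternative. Both pseudocounts left all 198 on their side of the threshold, and rescaling to a common sum left 187. Same-numbered libraries of a genotype had deviations correlated by -0.017 to 0.294 between days (highest with the own number in 48 of 54), and same-numbered libraries of a day by -0.256 to 0.192 between genotypes. The replicate block gave 1 called member between days 2 and 4 in WT (Inhba) and 1 in Per1-/- (Inhba), 2 for the label Per2-/- (Grem1 and Ltbp1), and 1 between Per1-/- and the label Per2-/- on day 2 (Tgfb1), where 0 were called without it. It also added Tgfb2 in Per1-/- on days 2 and 4 against day 0, and it changed no other member's call. Fitting only the compared groups gave 1 (Inhba) for days 2 and 4 in WT. For Per1-/- against the label Per2-/- on day 4 the count of 1 became 0 both in that fit and after rescaling. Leaving out 1 library gave 0 to 3 members there, 3 without day 4 replicate 2 of the label Per2-/-, and 0 to 1 between days 2 and 4 of the label Per2-/-, where Grem1 was called without the same library (1.45, adjusted p = 0.046). Depth limits Bmp4 most, at 234 fragments in its lowest library, and 3 libraries per group limit every test. The cause of these shifts was not tested.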

Other observations

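Deviations of the members from the mean of their genotype and day moved together in part over the 27 libraries. Pearson's r was 0.873 between Ltbp1 and Grem1, 0.757 between Bmp4 and Ltbp1, 0.752 between Tgfb3 and Bmp4 and 0.730 between Tgfb3 and Ltbp1, and the lowest values were -0.607 between Inhba and Tgfbr2 and -0.559 between Tgfbr1 and Tgfbr2. These are descriptions over the same 27 libraries, and no test was made. For Bmp4 and Ltbp1, 7 of the 9 sets of same-numbered libraries lay on one side of their group means on all 3 days, against 6 for Tgfb2, 4 each for Tgfb3, Inhba, Tgfbr2 and Grem1 and 3 each for Tgfb1 and Tgfbr1. In no genotype were the numbers taken as paired over all 3 days, so a set need not be one culture. The same count was not made over all tested genes, so no result about the members is drawn from it.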
